A study of Mus musculus with 2 samples.

Results

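The genes followed here in the mouse hypothalamus serve energy sensing and fatty acid synthesis: the AMPK catalytic subunits Prkaa1 and Prkaa2, the malonyl-CoA enzymes Acaca, Acacb and Mlycd, the malonyl-CoA-binding carnitine acyltransferase Cpt1c, and Fasn, Scd1, Scd2 and Elovl6, which build, desaturate and elongate fatty acids. All 10 genes were found by symbol, among 21502 named genes, and they were represented by 18 of 41174 probes. Acaca had 5 probes, Acacb, Cpt1c, Fasn and Prkaa1 had 2 each, and the other genes had 1 each. Of the 18 probes, 16 were well above background on at least 1 array and 15 on all 4 arrays. A dim Acaca probe that was bright on a single array differed by more than 1.5-fold, and no other probe of these genes was measured to differ by as much between diets or between times.

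AMPK is a kinase that is active when cellular ATP is low. It phosphorylates and inhibits the acetyl-CoA carboxylases, which make malonyl-CoA. Malonyl-CoA is the building unit that fatty acid synthase extends into palmitate, and it also inhibits the carnitine palmitoyltransferases that admit long-chain fatty acids to mitochondria. Malonyl-CoA decarboxylase removes it. In the hypothalamus this pathway is known as a fuel sensor that bears on feeding, and much of its regulation is by phosphorylation and by metabolite binding, which an mRNA array does not measure.

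The question of the series was the effect of a PPARα agonist on hypothalamic gene expression. Bezafibrate is a fibrate drug that activates the PPAR nuclear receptors. There were 4 groups, control and bezafibrate mice at ZT10 and control and bezafibrate mice at ZT22, where ZT counts hours from lights on. Each group was 1 pool of equal RNA amounts from 4 mice, of which 400 ng was labelled with Cy3 and hybridized to 1 one-colour whole-genome array. Per the labels, the feeding schedule began at 8 weeks of age with ordinary chow for 2 weeks. Bezafibrate at 0.5% of the feed followed for 2 weeks, and ordinary chow for 5 weeks. The labels do not settle at which stage of this schedule the brains were taken, or what the control mice were fed, and give neither strain nor sex. The dissected tissue was a square of brain around the hypothalamus.

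The arrays shared 1 slide, with the control pools at positions 1 and 2 and the bezafibrate pools at positions 3 and 4, so diet and slide position cannot be told apart. No group was replicated. Pairs of arrays are therefore compared without a p-value, and 1 odd pool or spot cannot be separated from a condition. Signals are processed spot intensities divided by the 75th percentile of the array (893 to 1050 intensity units). They are set side by side between probes only to name the brightest of a gene or list and to sum a list. Such sums are weighted toward the brightest probes of the list. Errors after ± are those the scanner software gives to the spots, combined for a log2 ratio (about 0.20 for bright probes). They leave out the spread between mice and between pools, and they are nearly the same for all bright probes. The measured spread of repeated spots within an array was smaller. Its median SD in log2 was 0.07 to 0.08, over 202 to 210 probes with repeated spots. Of 17 hypothalamic markers, 16 were on the array and all 16 were above background on at least 1 array. The pooled tissue holds many cell types, so fewer cells of a type and less RNA per cell cannot be told apart.

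Promoter windows were looked up for the 10 genes in a RefSeq table (build GRCm38.p6, from 250 bases before to 50 bases after a start site), and 8 genes matched. A pair is printed here: Fasn, whose window held the largest number of NF-Y boxes together with that of Mlycd, and Acacb, whose brighter probe had the largest difference between the diet ratios of the 2 times among the brightest probes of the 10 genes. Capitals mark each match, on either strand, to the NF-Y box CCAAT or to the nuclear receptor hexamer AGGTCA. Fasn lies at chr11:120824498-120824797 on the minus strand, and Acacb at chr5:114165268-114165567 on the plus strand. Both windows lie inside the span of their gene (Fasn 120805958-120825166, Acacb 114146321-114250761), downstream of its outermost start. The same holds for the Acaca window (84195188-84195487, gene span 84129635-84401651). The motif counts describe these windows and not every promoter of a gene.
Fasn: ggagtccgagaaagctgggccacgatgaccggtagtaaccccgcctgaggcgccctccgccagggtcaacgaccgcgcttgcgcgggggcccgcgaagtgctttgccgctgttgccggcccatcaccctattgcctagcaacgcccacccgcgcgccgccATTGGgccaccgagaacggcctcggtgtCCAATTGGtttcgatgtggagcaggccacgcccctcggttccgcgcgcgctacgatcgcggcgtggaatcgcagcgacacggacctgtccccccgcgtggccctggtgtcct
Acacb: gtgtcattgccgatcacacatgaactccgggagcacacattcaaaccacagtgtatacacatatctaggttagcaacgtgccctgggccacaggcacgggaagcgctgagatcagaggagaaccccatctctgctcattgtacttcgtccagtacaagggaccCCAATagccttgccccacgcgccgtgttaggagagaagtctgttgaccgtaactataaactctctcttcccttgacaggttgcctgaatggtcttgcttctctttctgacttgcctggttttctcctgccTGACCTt

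The Fasn window held 3 NF-Y boxes, 2 of which overlapped by 2 bases, and the Acacb window held 1 NF-Y box and 1 hexamer. NF-Y boxes were present in 4 of the 8 windows (Acacb, Mlycd, Cpt1c and Fasn), and in 37.4% of all 32851 windows of the same length. The hexamer was present in 3 of the 8 windows (Acacb, Cpt1c and Elovl6), and in 16.3% of all windows. The E-box CACGTG (7.15% of all windows), the SREBP-1 element TCACCCCAC (0.551%) and DR1, a pair of hexamers with 1 base between them (0.0396%), were found in 0 of the 8 windows. A match is a run of letters in the window and was not tested as a binding site.

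**Figure D1:**
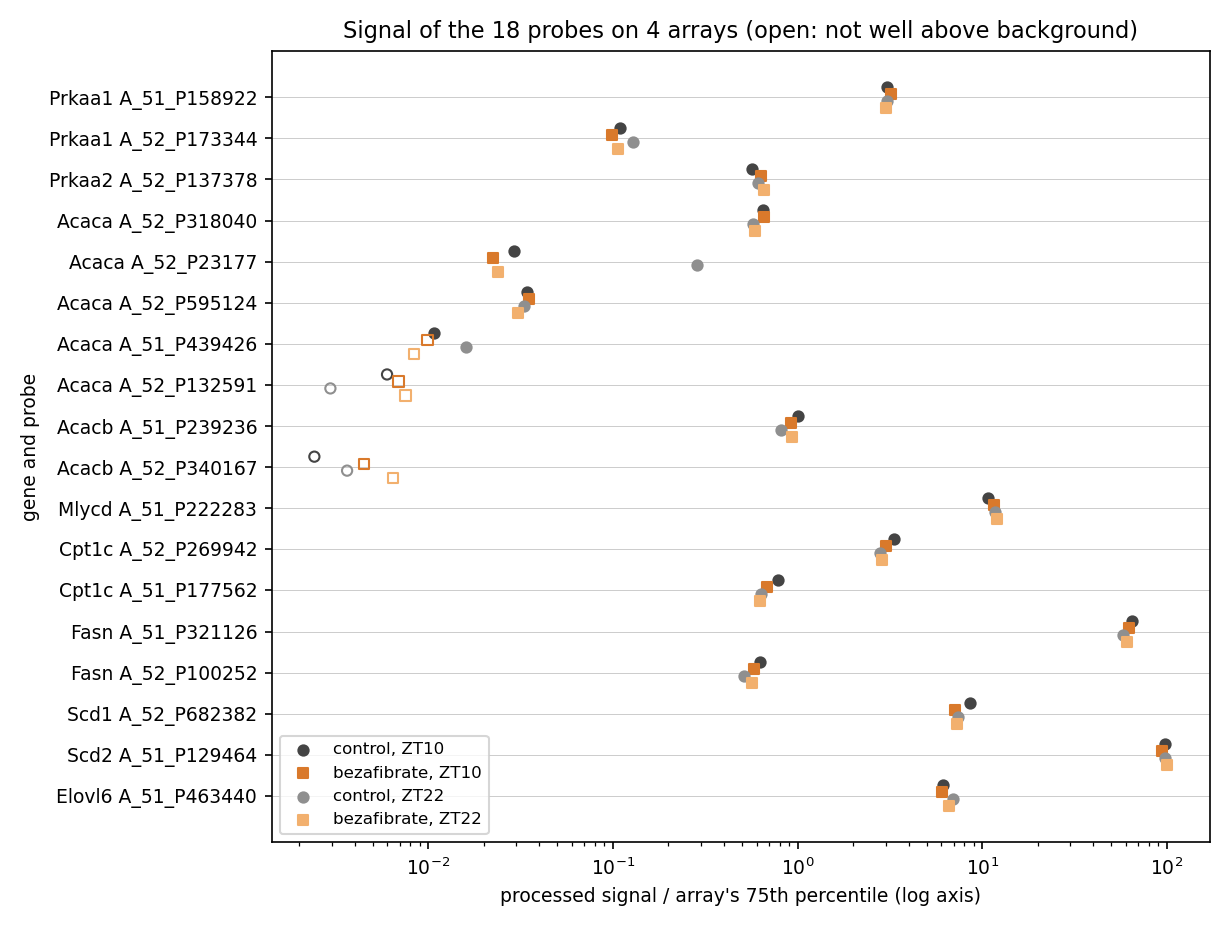
Processed signal divided by the array's 75th percentile (log axis) for the 18 probes of the 10 genes, with 1 point per array, circles for control, squares for bezafibrate, dark for ZT10 and pale for ZT22. Open symbols are not well above background. The 4 points of most probes lie close together, and the control ZT22 point of Acaca A_52_P23177 (0.284) lies far to the right of the other 3 (0.0224 to 0.0290).

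Prkaa1 and Prkaa2 are the alternative catalytic subunits of AMPK. Over the 4 arrays the signals of the brighter Prkaa1 probe spanned 1.06-fold and those of Prkaa2 1.16-fold. Those of the dimmer Prkaa1 probe spanned 1.30-fold. The brighter Prkaa1 probe (A_51_P158922) stood at 3.06 in control ZT10, 3.20 in bezafibrate ZT10, 3.06 in control ZT22 and 3.02 in bezafibrate ZT22. Its log2 ratio of bezafibrate over control was 0.06 ± 0.20 at ZT10 and -0.02 ± 0.20 at ZT22. The dimmer Prkaa1 probe (A_52_P173344) stood at 0.109, 0.0990, 0.129 and 0.106 in the same order. Its bezafibrate signal was the lower at both times, with diet ratios of -0.14 ± 0.21 and -0.28 ± 0.21, while the brighter probe of the same gene was level at both. Prkaa2 stood at 0.567 in control ZT10, 0.632 in bezafibrate ZT10, 0.613 in control ZT22 and 0.658 in bezafibrate ZT22. Its bezafibrate signal was the higher at both times, by 0.16 ± 0.20 and 0.10 ± 0.20, within the scanner error. Between ZT10 and ZT22 the ratios of the 3 AMPK probes lay between 0.00 and 0.24 in control mice and between -0.08 and 0.10 in bezafibrate mice.

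Acaca encodes acetyl-CoA carboxylase 1, the cytosolic enzyme that makes malonyl-CoA for fatty acid synthesis, and its 5 probes did not give the same ratios. The brightest (A_52_P318040) stood at 0.648 in control ZT10, 0.657 in bezafibrate ZT10, 0.576 in control ZT22 and 0.590 in bezafibrate ZT22. Diet made little difference there, with log2 ratios of 0.02 ± 0.20 and 0.03 ± 0.20, and ZT22 was the lower time in both diets, by -0.17 ± 0.20 and -0.16 ± 0.20. Another probe (A_52_P595124) was dim, with 34.8, 36.9, 33.5 and 27.5 intensity units, and its diet ratios were 0.03 ± 0.25 and -0.11 ± 0.26. Both probes therefore put bezafibrate and control within the scanner error at both times.

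The Acaca probe A_52_P23177 read 29.3 intensity units in control ZT10, 23.5 in bezafibrate ZT10, 287 in control ZT22 and 21.4 in bezafibrate ZT22. Only the control ZT22 array was high. Its log2 ratio of bezafibrate over control was therefore -0.37 ± 0.28 at ZT10 and -3.57 ± 0.24 at ZT22, and that of ZT22 over ZT10 was 3.29 ± 0.22 in control mice and 0.10 ± 0.30 in bezafibrate mice. The median pixel intensity of this spot was 93, 89, 395 and 84, over a local background of 47.5 to 49, and the software did not mark it as an outlier on any array. Of the 13 adjacent spots on the slide (within 2 rows and 1 column), 1 exceeded its own signal on each other array by 2-fold or more on the control ZT22 array too, at 252 units against 84.4 to 106. The Prkaa2 spot, which was not high there itself, also had 1 such spot among 13 adjacent ones. All other member probes had 0. Over all 43379 spots that were not controls, 1.23% stood apart in this way on the control ZT22 array, against 0.415% to 0.731% on the others. The part of the array in the Acaca reading was not tested, and this look at adjacent spots was chosen after the values were seen.

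Another Acaca probe (A_51_P439426) was near the background limit, at 10.9 units in control ZT10 and 16.1 in control ZT22, and it was not well above background on either bezafibrate array (10.4 and 7.45). It was at least 1.49-fold higher in control than in bezafibrate mice at ZT22, a bound set by the lowest signal counted as above background on the bezafibrate array. This bound did not hold with normexp background correction, which put its log2 ratio at -0.06. In control mice its log2 ratio of ZT22 over ZT10 was 0.56 ± 0.41. The last (A_52_P132591) was not well above background on any array, at 2.98 to 7.25 units.

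**Figure D2:**
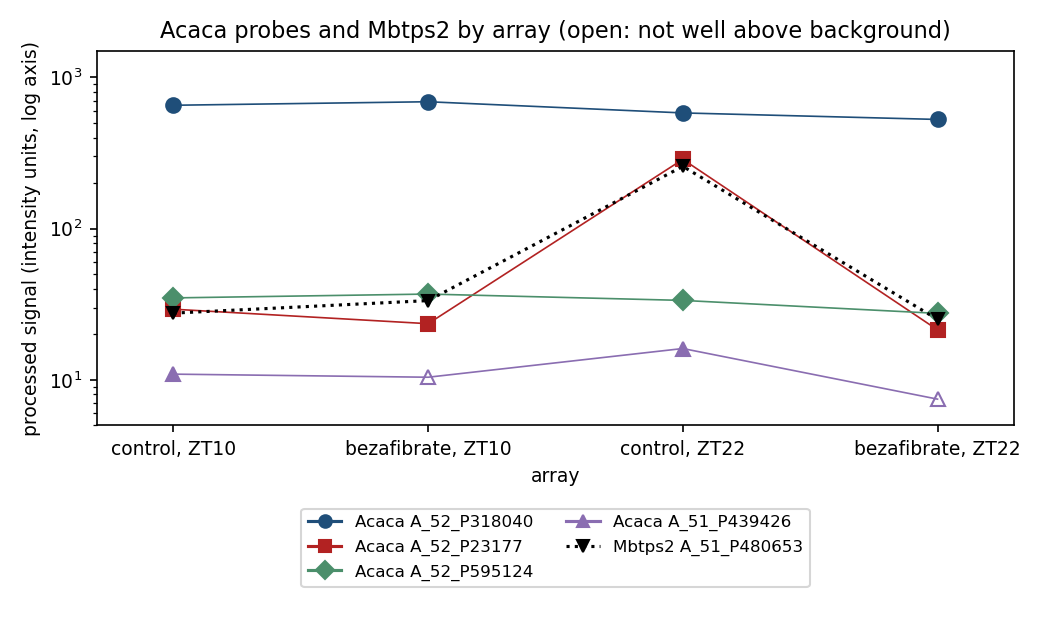
Processed signal in intensity units (log axis) of the 4 Acaca probes that were above background on at least 1 array, and of Mbtps2, on each of the 4 arrays, with open symbols where a probe was not well above background. The control ZT22 array is high for Acaca A_52_P23177 (287) and Mbtps2 (258), while Acaca A_52_P318040 keeps between 527 and 690 on all 4 arrays.

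Acacb encodes acetyl-CoA carboxylase 2, which sits at the mitochondrial surface and makes the malonyl-CoA that acts on fatty acid entry. Its measured probe (A_51_P239236) stood at 1.0 in control ZT10, 0.917 in bezafibrate ZT10, 0.811 in control ZT22 and 0.928 in bezafibrate ZT22. The control ZT22 array was the lowest. Bezafibrate over control was -0.12 ± 0.20 at ZT10 and 0.20 ± 0.20 at ZT22, and ZT22 over ZT10 was -0.30 ± 0.20 in control mice and 0.02 ± 0.20 in bezafibrate mice. The other Acacb probe (A_52_P340167) was not well above background on any array, at 2.44 to 5.74 units. Mlycd, malonyl-CoA decarboxylase, which breaks malonyl-CoA down, stood at 10.8, 11.5, 11.7 and 11.98 in control ZT10, bezafibrate ZT10, control ZT22 and bezafibrate ZT22. Its diet ratios were 0.09 ± 0.20 and 0.04 ± 0.20, and its time ratios were 0.11 ± 0.20 in control and 0.06 ± 0.20 in bezafibrate mice.

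Cpt1c is the brain form of carnitine palmitoyltransferase 1, which lies in the endoplasmic reticulum of neurons, binds malonyl-CoA and has little acyltransferase activity. Its brighter probe (A_52_P269942) stood at 3.32 in control ZT10, 3.02 in bezafibrate ZT10, 2.80 in control ZT22 and 2.87 in bezafibrate ZT22, and the other (A_51_P177562) at 0.779, 0.686, 0.634 and 0.628. Control ZT10 was the highest array for both. The probes gave diet ratios of -0.14 ± 0.20 and -0.18 ± 0.20 at ZT10, and of 0.03 ± 0.20 and -0.01 ± 0.20 at ZT22. In control mice ZT22 was below ZT10 by -0.24 ± 0.20 and -0.30 ± 0.20, and in bezafibrate mice by -0.07 ± 0.20 and -0.13 ± 0.20. In each of the 4 comparisons the log2 ratios of the 2 probes lay 0.05 apart.

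Fasn is the fatty acid synthase that makes palmitate from malonyl-CoA. Its brighter probe (A_51_P321126) stood at 64.7 in control ZT10, 62.5 in bezafibrate ZT10, 58.2 in control ZT22 and 60.8 in bezafibrate ZT22, and the other (A_52_P100252) at 0.624, 0.584, 0.516 and 0.570. Both probes ranked the arrays in the same order, with control ZT10 highest and control ZT22 lowest. Bezafibrate over control was -0.05 ± 0.20 and -0.10 ± 0.20 at ZT10, and 0.06 ± 0.20 and 0.14 ± 0.20 at ZT22. In control mice ZT22 was below ZT10 by -0.15 ± 0.20 and -0.27 ± 0.20, and in bezafibrate mice by -0.04 ± 0.20 and -0.03 ± 0.20.

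Scd1 and Scd2 are stearoyl-CoA desaturases, which introduce the double bond of oleate and palmitoleate, and Scd2 is the form known for its high level in brain. Scd1 stood at 8.55 in control ZT10, 7.12 in bezafibrate ZT10, 7.42 in control ZT22 and 7.32 in bezafibrate ZT22. The control ZT10 array was high and the other 3 were close together. Bezafibrate over control was -0.26 ± 0.20 at ZT10 and -0.02 ± 0.20 at ZT22, and ZT22 over ZT10 was -0.21 ± 0.20 in control mice and 0.04 ± 0.20 in bezafibrate mice. Scd2 stood at 98.0, 94.6, 98.4 and 100.4 in the same order, and its 4 ratios lay between -0.05 and 0.09. Its 4 signals spanned 1.06-fold, the narrowest span after that of the brighter Prkaa1 probe among the 16 measured probes. Elovl6, which elongates palmitate to stearate, stood at 6.14 in control ZT10, 6.06 in bezafibrate ZT10, 6.95 in control ZT22 and 6.60 in bezafibrate ZT22. Both ZT22 arrays were above both ZT10 arrays, by 0.18 ± 0.20 in control and 0.12 ± 0.20 in bezafibrate mice, and the diet ratios were -0.02 ± 0.20 and -0.08 ± 0.20.

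**Figure D3:**
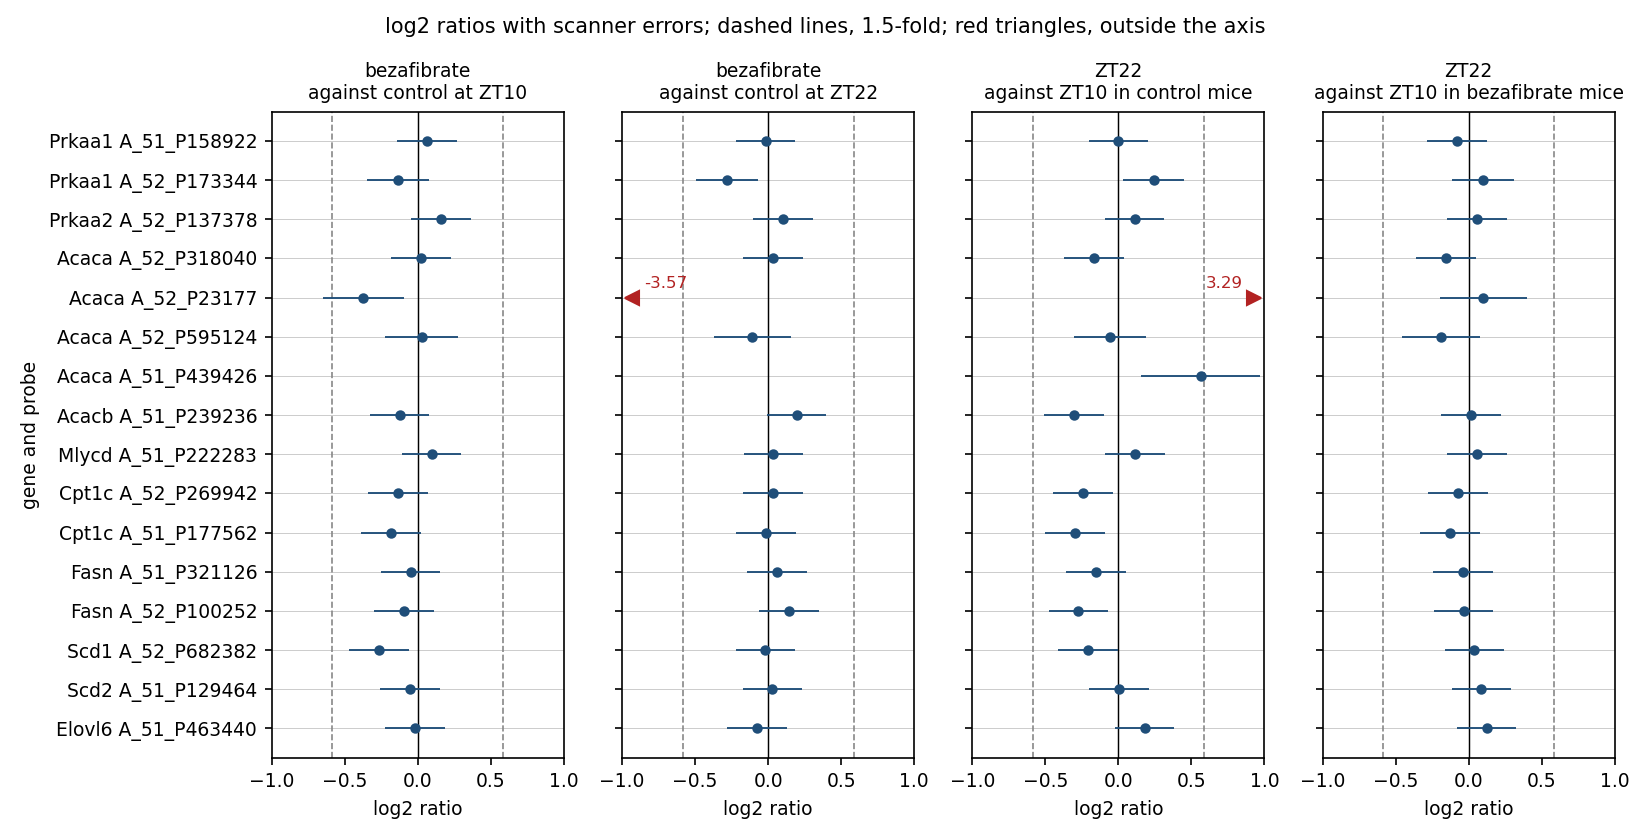
Log2 ratios of the member probes above background on both arrays of a comparison (x axis), with 1 row per probe and 1 panel per comparison. Bars are scanner errors and dashed lines mark 1.5-fold. All points lie inside the dashed lines except Acaca A_52_P23177 (-3.57 and 3.29, red triangles, outside the axis).

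Counted over probes, bezafibrate against control at ZT10 gave 0 of 16 member probes at least 1.5-fold higher (background 1.75% of 30596 probes) and 0 lower (background 2.68%). At ZT22 it gave 0 of 16 higher (2.45% of 29543 probes) and 1 lower (3.90%). ZT22 against ZT10 in control mice gave 1 of 16 higher (3.61% of 30814 probes) and 0 lower (4.93%). In bezafibrate mice ZT22 against ZT10 gave 0 of 15 higher (2.88% of 29192 probes) and 0 lower (3.81%). Both calls were Acaca A_52_P23177, and without that probe, an alternative added after the data were seen, all 8 counts were 0. Beside these background shares, a count of 0 or 1 among 16 probes is no result about these genes.

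Of 61 ratios measured on both arrays, 57 were under 0.32 in size, 49 lay within 1 scanner error of 0 and 59 within 2. By comparison, 13 of 15 were within 1 error for diet at ZT10, 13 of 15 for diet at ZT22, 8 of 16 for control mice across time and 15 of 15 for bezafibrate mice across time. The count of 57 takes both directions together. Per comparison and single direction, with bounds included, 0 to 2 of 15 or 16 member probes passed 0.32 in size. Of all probes, 4.21% to 10.7% did, counted in that same way. The share of all probes within 1 error was not counted. The median ratio size of all probes was 0.08, 0.09, 0.12 and 0.13 in the same order, also below the median error of 0.20. That of the member probes was 0.10, 0.06, 0.19 and 0.08. Taking the brightest probe of each gene, the median log2 ratio was -0.03 for diet at ZT10 and 0.03 at ZT22. For time it was -0.08 in control mice and 0.03 in bezafibrate mice. The medians of all genes were 0.00, 0.01, 0.03 and 0.04 in the same order. The lowest and highest genes were Scd1 and Prkaa2 (-0.26 and 0.16) for diet at ZT10, and Elovl6 and Acacb (-0.08 and 0.20) at ZT22. For time they were Acacb and Elovl6 (-0.30 and 0.18) in control mice and Acaca and Elovl6 (-0.16 and 0.12) in bezafibrate mice. The 4 comparisons are not independent, since each array enters 2 of them.

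The diet ratio kept its sign from ZT10 to ZT22 in 8 of 15 member probes, against 54.1% of 27190 probes. The difference between the diet ratios of both times was largest for Acaca A_52_P23177 (-3.19 ± 0.37), followed by Acacb (0.32 ± 0.29), Scd1 (0.25 ± 0.29) and the dimmer Fasn probe (0.24 ± 0.29). No test of this difference is possible with 1 array per group.

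An additive model of diet and time over the 4 arrays (limma, with 1 residual degree of freedom) called 0 of 16 member probes for diet and 0 for time after Benjamini-Hochberg adjustment (background 0% of 31031 probes for either effect and direction). At an unadjusted p under 0.05 it also gave 0 of 16 member probes, against 565 higher and 1042 lower for diet and 1351 higher and 2078 lower for time among all 31031 probes. These are small shares of all probes, so 0 of 16 is no result about these genes. The smallest adjusted p-values from limma among the members were 0.887 for diet and 0.451 for time. The latter belonged to the brightest Acaca probe, whose effect of ZT22 over ZT10 was -0.16 (SE 0.06) and had the same sign in both diets. The model takes the effect of diet to be the same at ZT10 and ZT22.

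The wider pathway was described with 11 lists, which held 97 further symbols beside the 10 genes. Of these, 95 were on the array and 91 or 92 entered each comparison through their brightest probe. Between 0 and 1 passed 1.5-fold in either direction in any comparison, and their median log2 ratio lay between 0.00 and 0.02. The gene that passed was Mbtps2, the site-2 protease that releases the SREBP factors from the membrane. It read 27.6 units in control ZT10, 33.4 in bezafibrate ZT10, 258 in control ZT22 and 25.1 in bezafibrate ZT22, so that its log2 ratio was -3.18 ± 0.24 for diet at ZT22 and 3.22 ± 0.22 for time in control mice. As for the dim Acaca probe, the control ZT22 array alone was high, and 3 of its 14 adjacent spots stood apart on that array in the same way.

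**Figure D4:**
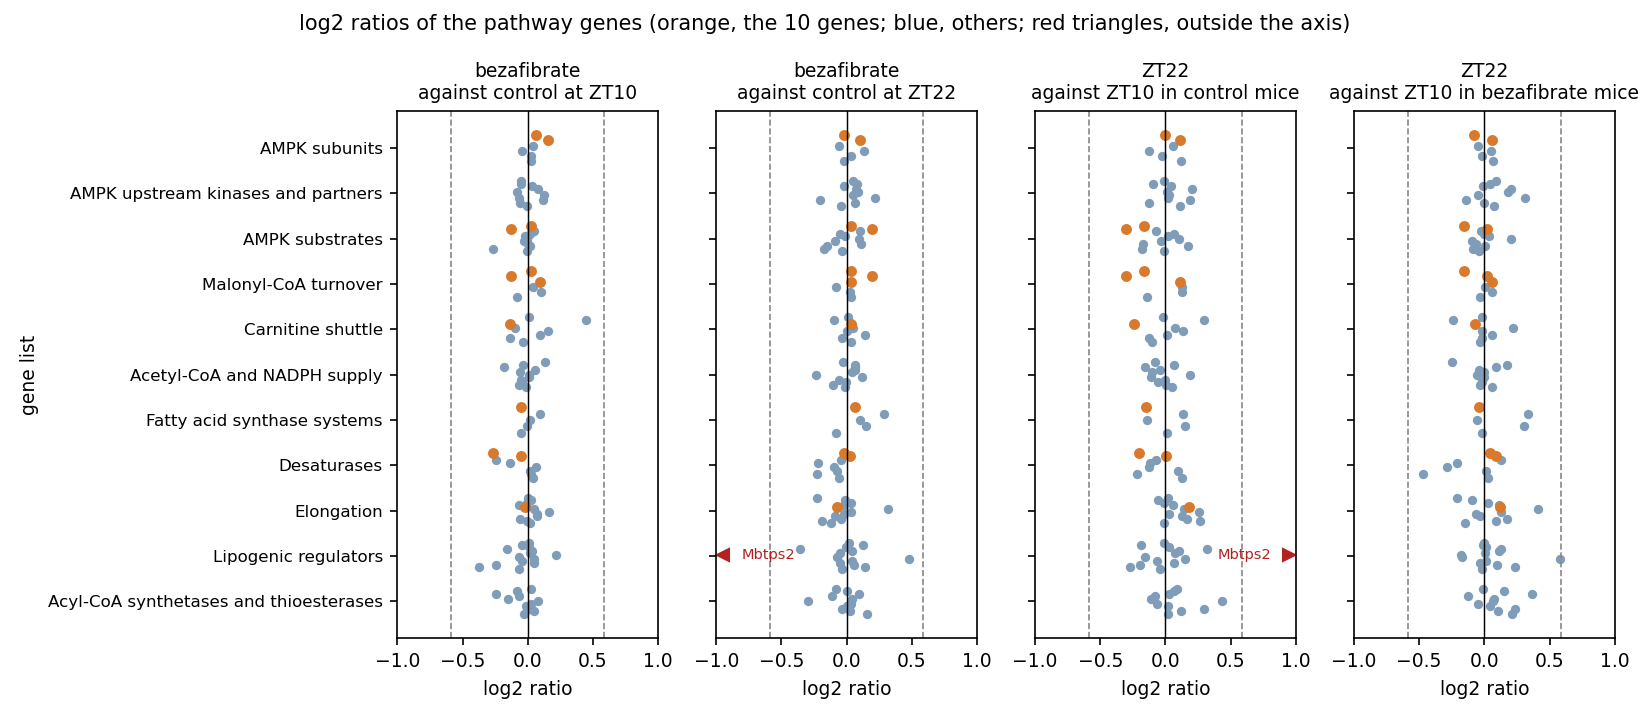
Log2 ratios of genes in the 11 pathway lists (x axis, brightest probe of each gene, genes above background on both arrays), with 1 row per list and 1 panel per comparison. The 10 genes are orange, other genes blue, dashed lines mark 1.5-fold, and Mbtps2 (-3.18 and 3.22) is the only gene beyond them.

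The list of AMPK subunits, with both catalytic members, had 6 of 7 genes measured, Prkag3 being below background, and medians between 0.01 and 0.03 in the 4 comparisons. Its brightest gene was the regulatory subunit Prkag1, at 6590, 6960, 6480 and 5850 units. The 10 upstream kinases and partners, among them the brightest, the calcium-dependent kinase Camkk1 (15600 to 19000 units), had medians between -0.03 and 0.06. The AMPK substrates, led by the autophagy kinase Ulk1 (16700 to 19700 units), had medians between -0.02 and 0.00, and none of the 3 lists had a log2 ratio past 0.32 in size. The same held for malonyl-CoA turnover, whose brightest gene was Mid1ip1 (26300 to 31400 units), a protein that promotes the polymerization of acetyl-CoA carboxylase, and for acetyl-CoA and NADPH supply, whose brightest gene was citrate synthase, Cs (53100 to 60700 units).

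Single genes of the other lists passed a log2 ratio of 0.32 in size in 1 or 2 comparisons. Those named in this paragraph beside the brightest were picked after their values were seen. Over all 11 lists, 0 to 4 of the 91 or 92 further genes passed 0.32 per comparison and direction, Mbtps2 included. Of all probes, 4.21% to 10.7% did. In the carnitine shuttle, Cpt1b, the muscle form of the transferase, was 0.45 for diet at ZT10, while the brightest gene Cpt2, the inner-membrane transferase, read 3530 to 3860 units. Of the fatty acid synthase systems, whose brightest gene was Fasn, Oxsm of the mitochondrial pathway was 0.33 for time in bezafibrate mice. Of the desaturases, led by Scd2, Fads6 was -0.47 for time in bezafibrate mice. In elongation, led by the dehydratase Hacd3 (97000 to 113000 units), Elovl7 was 0.41 for time in bezafibrate mice. Among lipogenic regulators, led by the SREBP escort Scap (19800 to 23100 units), Mlxipl, the carbohydrate-responsive factor ChREBP, was 0.48 for diet at ZT22 and 0.58 for time in bezafibrate mice. In the same list Usf1 was -0.37 for diet at ZT10, and Insig1, which retains SREBPs, was -0.36 for diet at ZT22. Among acyl-CoA synthetases and thioesterases, led by Acot7 (32600 to 37300 units), Acot1 was 0.43 for time in control mice and Acsl4 was 0.37 for time in bezafibrate mice.

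Markers of some other cell types and neighbouring regions moved together between the pools. All 14 oligodendrocyte markers were lower in bezafibrate than in control mice at ZT22 (median -0.33, summed scaled signal 238 against 273, and 259 and 257 at ZT10). In the same comparison 3 of the 10 genes were lower and 7 higher by their brightest probes (median 0.03). Of all 16992 genes, 47.8% were lower and 51.9% higher, so such sign counts are no result about these genes. Of the pathway lists, 7 of 8 desaturases (median -0.07), 9 of 12 elongation genes (-0.03) and 1 of 6 fatty acid synthase genes (0.12) were lower in that comparison. At ZT22, 7 of 8 choroid plexus markers (median 1.45; summed signal 9.54 against 7.23) and all 7 striatal markers (median 0.71; 83.5 against 60.6) were higher in bezafibrate mice. All 7 thalamic markers were lower in bezafibrate mice at ZT10 (median -0.36; 11.4 against 14.1). Astrocyte, neuron, microglia and endothelial lists had medians between -0.09 and 0.09 for diet at both times. Of the adipocyte markers, Adipoq, Lep and Cfd were not above background on any array, and the summed signal of the list was 0.129 to 0.163 (4 markers measured, medians -0.25 and 0.40 for diet at ZT10 and ZT22). All 6 measured anterior pituitary markers were lower in bezafibrate mice at ZT10 (median -0.75; summed signal 3.06 against 5.25), and 3 of 6 at ZT22 (median 0.09; 5.70 against 4.2). Of the hypothalamic markers, 11 of 15 were lower in bezafibrate mice at ZT10 (median -0.16; 271 against 315) and 10 of 16 higher at ZT22 (median 0.15; 329.9 against 327). Across time, all 7 thalamic (median -0.30), 6 of 7 striatal (-0.36) and all 6 anterior pituitary markers (-0.21) were lower at ZT22 than at ZT10 in control mice. In bezafibrate mice all 16 hypothalamic (median 0.27), all 8 choroid plexus (1.85) and all 7 striatal markers (0.40) were higher at ZT22, and 12 of 14 oligodendrocyte markers were lower (-0.16). The part of these differences in the ratios of the 10 genes was not tested.

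For the 3 genes whose brightest probe ranged most over the 4 arrays, the genes with the nearest pattern were sought among 15915 genes above background on all 4 arrays, by the Euclidean distance of log2 signals centred per gene. For Acacb, which ranged by 0.30, they were Bmp2k, Tbp and Stxbp5, at distances of 0.02 to 0.03. For Scd1 they were Prdm2, Rfx4 and Nckap1 (0.01 to 0.03), and for Cpt1c they were Dlgap1, Pbx4 and Wnt5a (all 0.01). The median distance over all genes was 0.27 to 0.28. Among so many genes and over only 4 arrays, a short distance is no result about a gene. Clones and numbered loci were passed over, so the genes named need not be the nearest. The search was run for these 3 genes only, over 4 arrays, and the patterns are given as a description.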

How the data were processed

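The data were 4 one-colour arrays, each of 1 pool of 4 mice. Per the file headers, the authors extracted spots with Feature Extraction 9.5.1.1, and the deposited processed signal is an intensity, background-subtracted and spatially detrended, written with 3 significant digits and not normalized between arrays. Marks for background, saturation and outliers were deposited too. Per the labels, the deposited value table is a ratio of bezafibrate over control (r of 0.988 and 0.990 in log2 with the array files, medians of its columns 0.947 and 0.958, centring not stated), used as an alternative only.

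Controls, and the 73 to 142 spots per array marked as outliers, were not used. Signals were taken to log2 after division by the 75th percentile over non-control spots, and spots of a probe were averaged. A probe entered a comparison when well above background on at least 1 of its arrays. No spot was saturated, and 68.7% to 74.6% were well above background. Genes were named through the files and the RefSeq table of GRCm38.p6, used for names and gene spans alone. The promoter table has its own coordinates. Group files were matched to the labels by their names, and checked against the direction of the deposited ratio.

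The members and lists were chosen with earlier results of these data known. Named were all member probes, list genes past 1.5-fold and the brightest of each list, and the 3 nearest patterns of the 3 genes with the largest range; other list genes are said to have been picked after their values were seen. Effects over 4 arrays were fitted with limma 3.58.1 (lmFit, eBayes, Benjamini-Hochberg) in R 4.3.3. The fit was also run on simulated data that gave every probe the same spread. Real probes differ in spread, so that run does not show what the fit can detect here. Alternatives were median scaling, quantile normalization, normexp with an offset of 50, the deposited table, other filters and 2 other fold thresholds (a log2 ratio of 0.32, and 2-fold). The number of arrays limits the precision.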

Additional observations from a re-analysis of the deposited data

Results flagged for a closer look

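Acacb was picked out because its diet ratios at the 2 times pointed in opposite directions by more than the scanner error of their difference. A change of sign was common, since 54.1% of all 27190 probes kept theirs. The share of all probes that meet the same rule was not counted. Bezafibrate over control was -0.12 at ZT10 and 0.20 at ZT22, a difference of 0.32 ± 0.29 in log2, and the difference was not tested. Both signs were the same under each scaling and background alternative, with -0.21 to -0.10 at ZT10 and 0.12 to 0.21 at ZT22. The 4 signals rest on 1 probe and 1 pool each.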

How the results depend on the processing

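The counts of member probes past 1.5-fold were the same under median scaling, normexp and the filter on all 4 arrays, and the diet counts, the only ones it can give, under the deposited table. Exceptions came from other settings. At a log2 ratio of 0.32, the lower count was 1 for diet at ZT10 and 2 at ZT22 (7.54% and 7.89% of all probes), and the higher count was 2 for time in control mice (8.23%). Under quantile normalization the last was also 2. Without Acaca A_52_P23177 the counts of 1 became 0. Normexp moved 4 of 63 member ratios by more than the scanner error: Acaca A_52_P23177 to -2.03 for diet at ZT22 and 2.04 for time in control mice, Acaca A_51_P439426 to -0.06 and the dimmer Prkaa1 probe to -0.07 for diet at ZT22. The cause was not tested. Signs changed in 2 of 63 ratios under median scaling, 5 under quantile normalization, 9 under normexp and 8 of 30 in the table as deposited, and each of those ratios was at most 0.09 in size. The median diet ratio of the 10 genes lay between -0.12 and -0.01 at ZT10 and between -0.04 and 0.05 at ZT22, where the table as deposited turned its sign. Counts over all probes fell to 107 to 283 under normexp and 274 to 943 with the stricter filter. The centred deposited table gave 467 and 646 lower at ZT10 and ZT22, against 820 and 1153. limma gave 0 adjusted calls under all its alternatives; quantile normalization moved its unadjusted diet counts to 880 higher and 730 lower. No paired analysis was possible because each group had 1 array and no numbers mark pairs; the additive fit compares diet within each time. No array could be left out, since 1 residual degree of freedom was available.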
